A study of Mus musculus with 5 samples.

Results

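Red cell barcodes are described here: droplets in which adult haemoglobin transcripts made up nearly everything that was sequenced. A barcode was taken as a member when Hba-a1, Hba-a2, Hbb-bs and Hbb-bt together held at least 50% of its UMIs (unique molecular identifiers, each counting 1 captured transcript), with no minimum number of genes. This rule picked 222 of the 7205 barcodes in the 5 libraries. The members were thus chosen by their globin share, the values of which are given as a description only. Of the 222, 220 lay in EAE 1, 1 in EAE 2 and 1 in Healthy 3, and none in Healthy 1 or Healthy 2.

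All 5 libraries came from spinal cords of Col1a1GFP mice on the C57/BL6 background, in which green fluorescent protein reports activity of the Col1a1 promoter, a promoter of collagen-producing cells such as fibroblasts. The 3 Healthy libraries came from mice without disease and the 2 EAE libraries from mice with experimental autoimmune encephalomyelitis, an immune-mediated inflammation of the cord. The labels give no age, day of disease, way of induction or number of pooled animals. Cords were dissociated, GFP+ cells were sorted by flow cytometry, and libraries were made with 10x Genomics v2 chemistry. Red cells are not the population that the gate was set for. The labels leave unsaid whether different animals stand behind the libraries.

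In adult mammals, red cells arise in bone marrow, where erythroblasts fill with haemoglobin, a tetramer of alpha and beta chains that each hold a haem group. The nucleus is then expelled, and the resulting reticulocyte makes no new messenger RNA. It translates what it kept while it clears mitochondria and ribosomes through autophagy and ubiquitin-dependent breakdown, and circulates into the spinal cord with the blood. The RNA beside globin in such a cell is therefore a remnant of the erythroblast's transcripts.

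The 5 genes that mark these cells were the adult alpha globins Hba-a1 and Hba-a2, the adult beta globins Hbb-bs and Hbb-bt, and Alas2, which encodes the erythroid form of the first and rate-limiting enzyme of haem synthesis. Alas2 took no part in the rule. The 100 bases before each RefSeq start site are shown because the members' transcripts are read from these promoters, and because the pairs of near-copies differ in how far the resemblance reaches. Coordinates are GRCm38 (mm10), each sequence runs 5′ to 3′ on the gene's own strand, and capitals mark matches on either strand to GATA (the core site of GATA factors), the box CACCC (a site of Klf factors), the box CCAAT and the TATA box written as TATAA.
Hba-a1, chr11:32283572-32283671, plus strand: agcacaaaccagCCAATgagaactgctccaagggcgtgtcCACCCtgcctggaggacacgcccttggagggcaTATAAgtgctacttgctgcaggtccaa
Hba-a2, chr11:32296392-32296491, plus strand: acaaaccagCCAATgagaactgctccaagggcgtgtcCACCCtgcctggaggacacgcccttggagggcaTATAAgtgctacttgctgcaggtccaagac
Hbb-bs, chr7:103827929-103828028, minus strand: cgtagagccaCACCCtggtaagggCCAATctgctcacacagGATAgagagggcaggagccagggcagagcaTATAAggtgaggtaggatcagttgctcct
Hbb-bt, chr7:103813924-103814023, minus strand: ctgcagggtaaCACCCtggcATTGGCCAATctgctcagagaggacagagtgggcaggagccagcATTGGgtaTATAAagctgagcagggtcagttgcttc
Alas2, chrX:150547317-150547416, plus strand: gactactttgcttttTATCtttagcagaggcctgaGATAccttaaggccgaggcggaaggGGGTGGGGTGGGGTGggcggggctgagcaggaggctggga

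All 4 globin windows held the CACCC, the CCAAT and the TATAA string, a combination found in 155 of 32851 windows of this length in the RefSeq promoter table (0.472%). Singly, CACCC was in 27.2% of all windows, the CCAAT box in 18.9% of them, the TATAA string in 10.2%, and GATA was in 8226 windows. The Alas2 window held GATA on each strand and 3 CACCC matches on the minus strand (read there as GGGTG) and no CCAAT or TATAA. Both alpha windows shared an identical run of 97 bases, whereas the longest run shared by the beta windows was 14 bases. A match is a string of letters and says nothing of binding.

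The likeness also reaches the transcripts, which bears on every value per chain. Of all 100-base windows along the annotated Hba-a1 transcript, 56.5% occurred unchanged in Hba-a2, and for Hba-a2 the share found in Hba-a1 was 74.5%. Hbb-bs shared 62.6% of its windows with Hbb-bt, and Hbb-bt 54.8% with Hbb-bs. Over windows in the last 300 bases, nearest to where these 3′ libraries are read, the shares were 50.2% and 42.3% for the alpha pair and 20.9% and 20.4% for the beta pair. Reads from shared stretches cannot be placed in 1 copy, so the splits within the alpha and the beta pair are uncertain. The alpha pair shares more of its last 300 bases than the beta pair, so the alpha share of globin may be affected too. The total of the 4 genes is firmer than the splits, though any reads left out for this reason would lower it.

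Before the results, some facts of the libraries matter. They held 376 to 2293 barcodes and 1588693 to 10775024 UMIs each, and median UMIs per barcode ran from 615 in Healthy 1 to 5002.5 in EAE 2. Healthy 1, Healthy 2 and EAE 1 were labelled in one way and Healthy 3 and EAE 2 in another that names a lane, and these are treated as 2 batches. Barcodes recurred within the first batch. Of the 1936 EAE 1 barcodes that were not members, 1239 (64.0%) occurred in Healthy 1 too and 683 (35.3%) in Healthy 2. None of the 220 members recurred there. Recurrence went with depth. Of 682 other barcodes with at least 5500 UMIs, 93.7% recurred in Healthy 1 and 90.9% in Healthy 2. Of 318 other barcodes with 2063 to 3010 UMIs, the middle range of the members, 2 (0.629%) recurred in Healthy 1 and none in Healthy 2. Of the 94 globin UMIs of Healthy 1, 60 lay in barcodes shared with EAE 1, and of the 136 of Healthy 2, 17 did. In EAE 2, 2 members recurred, with no globin UMI there. The cause of the recurrence was not tested.

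Members made up 10.2% of EAE 1 (220 of 2156 barcodes, exact Clopper-Pearson 95% interval 8.96 to 11.6%). In EAE 2 the share was 0.0792% (1 of 1262, interval 0.00201 to 0.441%), and in Healthy 3 it was 0.266% (1 of 376, interval 0.00673 to 1.47%). Counts of 0 allow up to 0.131% in Healthy 1 and 0.268% in Healthy 2 by the limit of 3 barcodes over the total, and the exact upper bounds are 0.161% and 0.329%. Intervals and limits cover counting error only. EAE 1 stood apart from the other 4 libraries, and the other EAE library lay between the Healthy ones. The mean difference between EAE and Healthy was 5.05 percentage points (5.14% ± 7.16 against 0.0887% ± 0.154, SD, n = 2 and 3), with a two-sided exact permutation p of 0.4. With 5 libraries this test cannot fall below 0.2. Within batches the difference was 10.2 points in the first and -0.187 points in the second, and without EAE 1 it was -0.00941 points. With labels permuted only within batches, the mean of the batch differences was 5.01 points (two-sided exact permutation p = 0.667, smallest possible 0.333). The excess in EAE 1 was therefore a feature of 1 library and was not shared by the second EAE library.

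**Figure D1:**
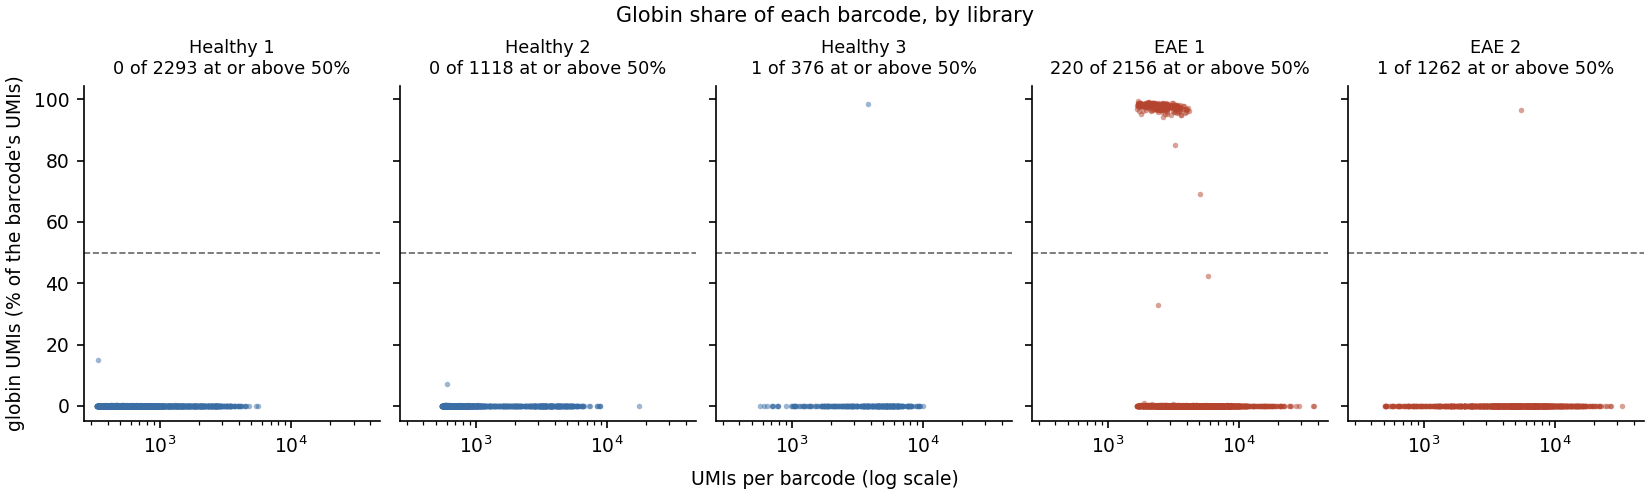
Globin UMIs as a percentage of each barcode's UMIs (vertical axis) against UMIs per barcode (horizontal axis, log scale), 1 point per barcode and 1 panel per library, with the dashed line at the 50% threshold. EAE 1 has a dense group near the top, Healthy 3 and EAE 2 have 1 point each there, and almost no barcode lies between.

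Globin as a share of all UMIs restates these counts, since the members held 99.1% of globin UMIs in EAE 1, 99.8% in EAE 2 and 99.6% in Healthy 3. Globin took 5.16% of all UMIs in EAE 1 and 0.0726% in EAE 2, against 0.00472%, 0.00697% and 0.239% in Healthy 1, 2 and 3. EAE exceeded Healthy by 2.53 points (two-sided exact permutation p = 0.4), by 5.15 points in the first batch and by -0.167 points in the second, and by -0.0111 points without EAE 1. How the blood content of each cord was handled before dissociation is not in the labels, and its part in these shares was not tested. In a sorted suspension, more red cells and less exclusion of red cells cannot be told apart.

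The globin share divided EAE 1 sharply. Its members ranged from 69.3% to 99.4% globin with a median of 97.9%, and 218 of 220 were at or above 90%. Just inside the threshold were 2 barcodes at 69.3% and 85.1%, and the next stood at 94.3%. Just outside were 2 barcodes at 42.3% and 32.9%, and the next stood at 0.891%.

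Those 4 barcodes carried transcripts of other cells beside globin. The barcode at 69.3% had 5087 UMIs, of which 1563 were not globin, from 754 genes in all, with 32 UMIs of Tmsb4x (an actin-binding peptide), 10 over the 8 lymphocyte markers, 11 over the 10 macrophage and monocyte markers (only 2 of these detected, Lyz2 and C1qb at 0) and none over the 11 fibroblast markers. The barcode at 85.1% had 488 non-globin UMIs, with 8 of the chemokine Ccl4, 4 of the complement gene C1qb and 78 of the nuclear RNA Malat1. Outside the threshold, the barcode at 42.3% held 682 UMIs of Apod and 51 of Dcn, both fibroblast transcripts in this cord, and the one at 32.9% held 16 each of Lgals3 and Ccl8. Alas2 had 11, 1, 2 and 2 UMIs in these 4 barcodes in that order. The 2 members below 90% are 0.909% of the members by number but contributed 13.1% of their non-globin UMIs (2051 of 15613). Values that turn on them are given with and without them.

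Typical members were shallow in everything but globin. They had 1679 to 5087 UMIs with a median of 2462.5, compared with a median of 4517 in the other barcodes of EAE 1, and the smallest total in that library was 1670. Non-globin UMIs numbered 11 to 1563 per member with a median of 53. Genes detected ran from 13 to 754 with a median of 44, against 1863 in the other barcodes. With every barcode thinned to 1600 UMIs the medians were 31 and 893 genes. A minimum of 200 genes per barcode would have removed 218 of the 220 members, and 218 of the 220 barcodes of EAE 1 below that minimum were members. With that minimum, the mean difference between EAE and Healthy in the share of members was 0.0517 percentage points in place of 5.05.

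Globin UMIs themselves ran from 1626 to 3986 per member with a median of 2402.5. No barcode of EAE 1 had under 1670 UMIs in all, so members with less globin are not in these data. The spread is that above this limit only. Hbb-bs was the most abundant (644 to 2012 UMIs per member, median 1122.5), followed by Hba-a1 (337 to 978, median 584), Hba-a2 (272 to 820, median 487.5) and Hbb-bt (44 to 537, median 215). Alpha chains were 33.5% to 56.7% of a member's globin UMIs, with a median of 43.3%. Within the alpha pair, Hba-a2 held 37.3% to 51.6% with a median of 45.3%. Relative to its median the minor beta chain varied most of these shares, with Hbb-bt at 3.92% to 24.6% of beta UMIs and a median of 15.7%.

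Each member outside EAE 1 lay beyond the EAE 1 range on 1 of these 3 chain shares and within it on the others. The EAE 2 member carried 1273 UMIs of Hba-a1, 1671 of Hba-a2, 1827 of Hbb-bs and 526 of Hbb-bt. Its alpha share was 55.6%, and Hba-a2 made up 56.8% of its alpha UMIs, above the highest value in EAE 1. The Healthy 3 member carried 982, 957, 1819 and 29 UMIs of the same genes in the same order. Hbb-bt made up 0.766% of its globin UMIs, against 8.81% over the members of EAE 1 and 9.93% in the EAE 2 member. Each is 1 barcode, so nothing is known of the spread in its library.

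**Figure D2:**
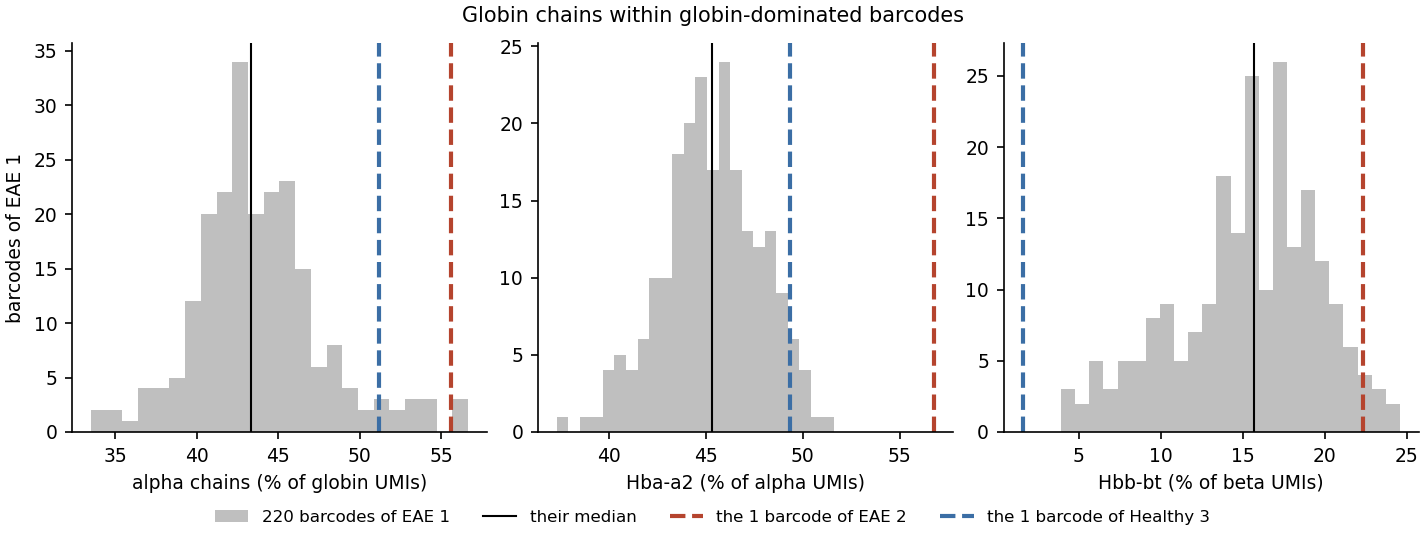
Histograms of the 220 members of EAE 1 (vertical axis, number of barcodes) by alpha share of globin UMIs, Hba-a2 share of alpha UMIs and Hbb-bt share of beta UMIs (horizontal axes, %), with the median as a solid line and the single members of EAE 2 and Healthy 3 as dashed lines. The EAE 2 member lies right of the EAE 1 range for Hba-a2, and the Healthy 3 member left of it for Hbb-bt.

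Transcripts beside globin were compared as shares of non-globin UMIs, 15613 in the members of EAE 1 and 10203714 in its 1936 other barcodes. Since the members lie in 1 library, there is no replicate of this contrast, and ratios carry an exact 95% interval for counting error and no test across genes. A gene entered when its UMIs in members plus the number expected there from the other barcodes reached 10, which 412 genes did. Of these, 118 (28.6%) were at least 2-fold higher in members, 132 (32%) were at least 2-fold lower and 162 lay between. Of the 118, 107 met the filter only through their UMIs in members. Only 28 of the 118 also had more UMIs per member than per other barcode, and the other 90 were higher only as a share of a small total. Ftl1, Gpx1, Oaz1, Ubb and Sec61g, named below, were among these 90.

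Alas2 led the remaining transcripts. It had 806 UMIs in 207 of the 220 members, from 0 to 11 per member with a median of 3, and 8 UMIs in all other barcodes together. That is 516 per 10000 non-globin UMIs against 0.00784. In the other barcodes 4 of the 8 UMIs lay in ones with under 1% globin. Alas2 UMIs, which the rule did not use, were thus seen in 94.1% of the members of EAE 1 and not in 13 of them. They were also seen in the member of EAE 2, with 22 UMIs, and in that of Healthy 3, with 9.

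Haem synthesis as a whole was present only in part. Of the 15 listed genes of haem synthesis and mitochondrial iron, 6 had a UMI in members and 5 could be compared. All 5 met the filter only through their UMIs in members, so that they were higher was fixed by the filter. The list took 6.39% of non-globin UMIs in members and 0.0542% in other barcodes. Beside Alas2 these were Fech, the ferrochelatase that inserts iron into the porphyrin ring (96 UMIs in 74 members), Slc25a37, the mitochondrial iron importer mitoferrin (46 UMIs in 39 members), Slc25a39 (32 UMIs) and Glrx5, an iron-sulphur cluster protein (15 UMIs). Fech was 165-fold higher (interval 131 to 207) and Slc25a37 289-fold (200 to 413), or 477-fold (190 to 1537) against other barcodes of the members' UMI totals. The enzymes of the steps between, among them Alad, Uros, Urod, Cpox and Ppox, had no UMI, and at this depth 0 UMIs allow up to 1.92 per 10000. The list's first and last enzymes were thus seen and the middle of the pathway was not detectable.

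Red cell membrane and skeleton genes held 1.77% of non-globin UMIs in members and 0.0604% in other barcodes, and the 3 genes compared also met the filter only through the members. Cd24a, the heat-stable antigen, had 127 UMIs in 74 members, and Epb41, the protein that ties spectrin to actin, 77 in 58. Cd24a was 386-fold higher (308 to 483) and Epb41 258-fold (196 to 338). Slc4a1 (the band 3 anion exchanger) and Tspo2 had 6 UMIs each in members and none in other barcodes, too few to enter the comparison. Of the 22 genes 13 had no UMI, among them Ank1, Sptb and Rhag.

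Among globin protection and red cell enzyme genes, 9 of 15 could be compared, again only through their UMIs in members, and the list held 6.47% of non-globin UMIs in members, compared with 0.189% in other barcodes. Bpgm, the mutase that makes the 2,3-bisphosphoglycerate which lowers haemoglobin's oxygen affinity, had 399 UMIs in 149 members and was 674-fold higher (584 to 777). Gpx1, a glutathione peroxidase that removes hydrogen peroxide, had 328 UMIs in 93 members, with up to 17 in 1 member, and was 54.0-fold higher (48.1 to 60.4). Isg20, an RNA exonuclease, had 106 UMIs in 72 members. Prdx2, the main red cell peroxiredoxin, had 56 UMIs, Blvrb, which reduces biliverdin, 34, and Car2, a carbonic anhydrase, 29. Car1, Pklr and Sod1 had none.

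Genes tied to reticulocyte maturation formed the largest of the erythroid lists, with 12.5% of non-globin UMIs in members and 0.437% in other barcodes. Of 22 listed genes 17 had a UMI and 14 could be compared, 12 of them only through the members. Mkrn1, a RING-type ubiquitin ligase, had 413 UMIs in 154 members and was 419-fold higher (370 to 475). Bnip3l, the receptor through which reticulocytes clear mitochondria, had 198 UMIs in 118 members and was 80.6-fold higher. The ubiquitin-conjugating enzyme Ube2l6 had 183 UMIs, ubiquitin itself (Ubb) 288, and the autophagy proteins Gabarapl2 and Map1lc3b 132 and 101. Fam46c, a poly(A) polymerase, had 50 UMIs in 45 members and was 399-fold higher (275 to 573), which fell to 144-fold against other barcodes of the members' own range of UMI totals.

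Ferritin dominated the iron genes. Ftl1, the light chain, was second only to Alas2, with 525 UMIs in 192 members and a ratio of 9.46 (8.66 to 10.3). Fth1, the heavy chain, had 217 UMIs in 104 members and a ratio of 1.84, short of 2-fold. Both have many processed copies in the genome, so their counts are less certain than those of single-copy genes. Slc40a1 (ferroportin), Hmox1 (haem oxygenase) and Steap3 had no UMI.

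Over all 7 erythroid lists, 100 genes were in the tables. Of these, 50 had at least 1 UMI in members and 50 had none. Of the 34 compared, 30 met the filter only through their UMIs in members, and 32 were higher, where 28.6% of all 412 genes were. The median log2 ratio was 6.24 beside -0.43 over all 412. Count and median are descriptions, since the filter fixed the direction of most and the 50 genes at 0 are not in them. Together they held 32.1% of the members' non-globin UMIs and 1.88% of those of other barcodes.

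**Figure D3:**
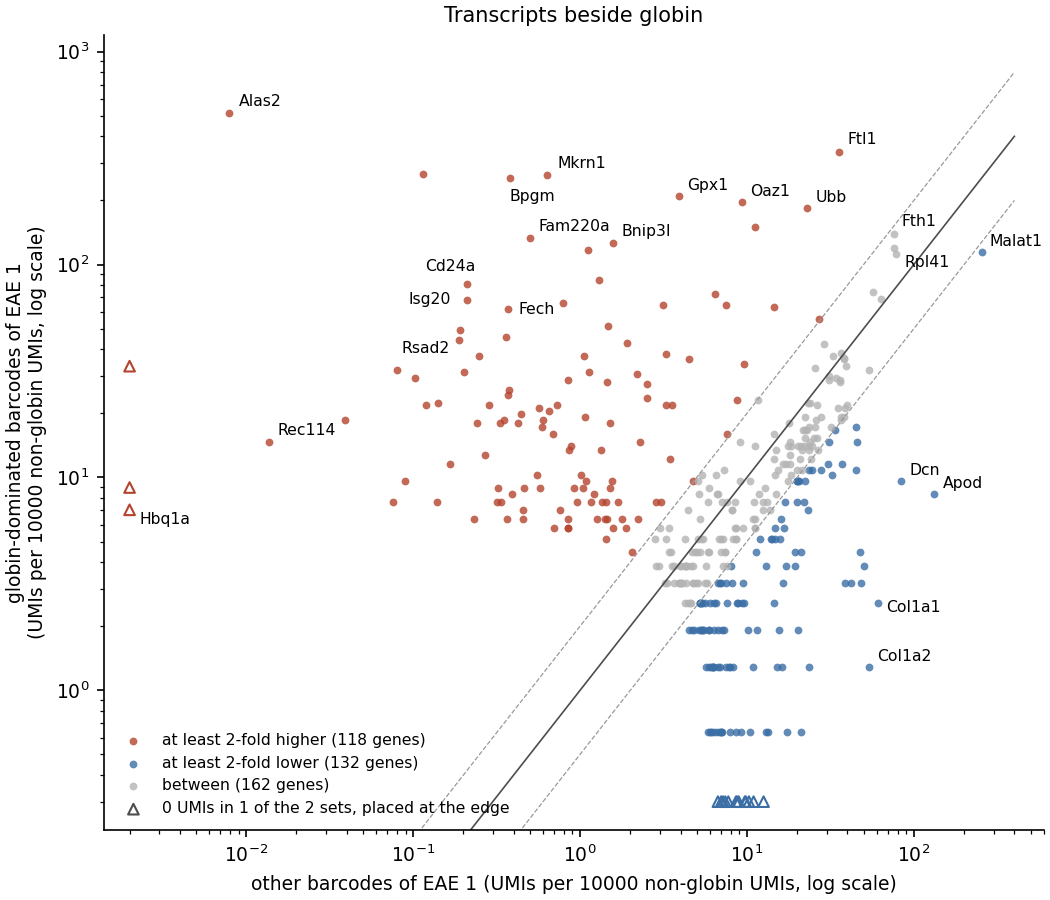
Each of the 412 compared genes by its UMIs per 10000 non-globin UMIs in the other barcodes of EAE 1 (horizontal axis, log scale) and in its 220 globin-dominated barcodes (vertical axis, log scale), with the line of equality, dashed lines at 2-fold and triangles at the plot's edge for genes with 0 UMIs in either set. Alas2, Bpgm and Mkrn1 lie far above the line at the upper left, while Col1a1, Col1a2, Dcn and Apod lie below it.

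Other leading transcripts belonged to none of these lists. Oaz1, the antizyme that limits polyamines, had 306 UMIs in 147 members and was 21.0-fold higher. Sec61g, a subunit of the protein translocon, had 234 UMIs in 120 members and was 13.4-fold higher. Both Oaz1 and Sec61g were higher only as a share, with fewer UMIs per member than per other barcode. Fam220a had 209 UMIs in 127 members and was 267-fold higher (226 to 314). Gda, a guanine deaminase, had 34 UMIs in 29 members (ratio 182), and Rec114, known from meiotic recombination, 23 UMIs in 22 members against 14 in all other barcodes (ratio 1074, interval 529 to 2257). Rsad2, which encodes viperin, had 69 UMIs in 44 members, 10 of them in 1, and its ratio of 234 became 115 against other barcodes of the members' UMI totals.

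Regulators of the erythroid programme had few UMIs, though more as a share than in other barcodes, with 0.0640% of non-globin UMIs in members and 0.0165% in the others (ratio 3.89, interval 1.86 to 7.16). Of 15 listed transcription factors and receptors, 12 had no UMI in the 220 members, including Gata1, Klf1, Tal1, Nfe2, Epor and Tfrc, for each of which up to 1.92 per 10000 could have gone unseen. Lmo2 had 5 UMIs, Foxo3 4 and Kit 1. Embryonic globins were also at 0 UMIs (Hba-x, Hbb-y, Hbb-bh1 and Hbb-bh2), whereas the theta globin Hbq1a had 11 UMIs in 11 members and none in other barcodes. Among 12 cell cycle genes, 34 of 39 UMIs were of Ube2c, which was also in the maturation list, and Top2a, Cdk1 and Ccnb1 had none. The cell cycle list's share of non-globin UMIs was 2.05 times that in other barcodes (interval 1.46 to 2.81), and Nusap1 and Diaph3, 2 further genes of division chosen after their values were seen, had 15 and 12 UMIs.

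Of 6 listed RNAs that stay in the nucleus, 2 had no UMI in members and 4 could be compared, 3 of them with under 10 UMIs there. At least 2-fold lower were 2 of the 4 (50%), where 32% of all genes were, and the other 2 lay within 2-fold. The list's 192 UMIs were mostly of Malat1. Malat1 had 178 UMIs in 60 members, 78 of them in 1, which is 114 per 10000 against 254 in other barcodes (ratio 0.448, interval 0.385 to 0.519). The 2 members under 90% globin held 113 of the 178, and without them the ratio was 0.188 (0.145 to 0.240). With all members it was 0.242 against other barcodes of the members' UMI totals. In 160 of the 220 members Malat1 had no UMI, where 98.9% of other barcodes had one, at far more non-globin UMIs per barcode.

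Ribosomal protein transcripts held 12.8% of non-globin UMIs in members and 20.1% in other barcodes (ratio 0.639, interval 0.611 to 0.667). The ratio was 0.854 (0.817 to 0.892) against other barcodes of the members' UMI totals, still below 1 but nearer to it. Of the 83 compared, 28 (33.7%) were 2-fold lower, near the 32% over all genes, and none was 2-fold higher, where 28.6% of all genes were. Among the lower was Rps28 (17 UMIs, ratio 0.242), and Rpl41, at 186 UMIs, had a ratio of 1.57. Of the 2004 ribosomal UMIs, 466 lay in 1 member, and without the 2 members under 90% the share was 11.2%. The 9 listed translation factors held 2.24% against 1.17%, led by Pabpc1, the poly(A)-binding protein (114 UMIs), Eif1 (99) and Tpt1 (87), with 3 of 7 compared genes higher and 2 lower (28.6% and 32% over all genes). Genes of the mitochondrial genome held 3.73% against 3.33% (ratio 1.12), and all 8 compared were within 2-fold. Without these 2 members their share was 3.26% and the ratio 0.980 (0.890 to 1.08). Against other barcodes of the members' UMI totals it was 0.912 (0.839 to 0.990), so no direction is given for the mitochondrial genes.

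**Figure D4:**
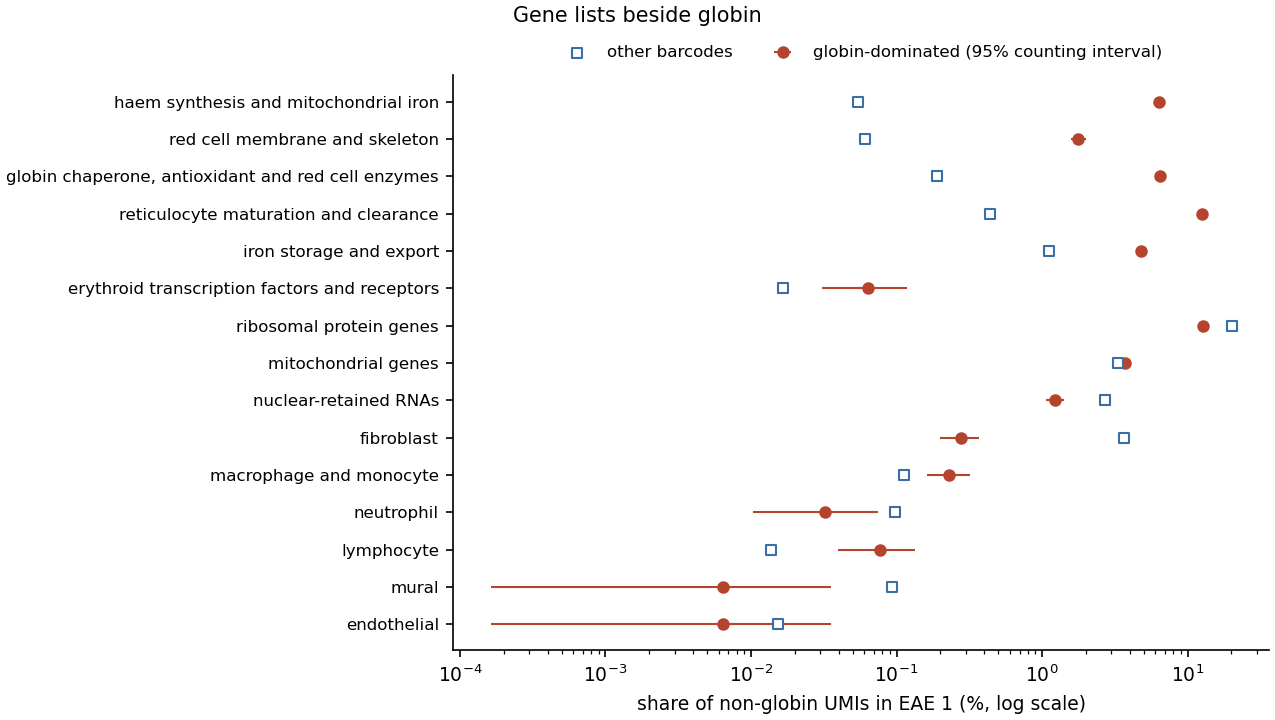
Share of non-globin UMIs (horizontal axis, %, log scale) taken by each gene list (vertical axis) in the 220 globin-dominated barcodes of EAE 1 (filled circles with exact 95% counting intervals) and in its 1936 other barcodes (open squares). Haem, membrane, enzyme and maturation lists lie far to the right in globin-dominated barcodes, and the fibroblast list far to the left.

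Transcripts of the sorted cells were low in the members. The 11 fibroblast markers had 43 UMIs in 31 members, 0.275% of non-globin UMIs (0.199 to 0.371%), against 3.68% in other barcodes, and 189 members had none. All 10 compared were lower, where 32% of all genes were. Of the 10, 9 had under 10 UMIs in members and entered only with the UMIs expected from the other barcodes, which favoured a lower ratio. The expected number was itself under 10 for 2 of the 10. Col1a1, the gene whose promoter drives the reporter, had 4 UMIs in 4 members and was found in 89.4% of other barcodes. Other barcodes had a median of 4515.5 non-globin UMIs against 53 in members, so the numbers of barcodes with a UMI are not comparable. Col1a2 had 2 UMIs, Sparc 5, Col3a1 7 and Dcn 15, and outside the list Apod had 13, Igfbp7 6, Saa3 5 and Igkc, an immunoglobulin light chain, 5. Their ratios ran from 0.0238 for Col1a2 to 0.115 for Dcn. Against other barcodes of the members' UMI totals the ratio of Igkc went from 0.0764 to 1.39 (0.445 to 3.29), so no direction is given for it. On that basis Saa3 went from 0.0823 to 0.224, Col3a1 from 0.0940 to 0.193, Col1a1 from 0.0423 to 0.0737, Col1a2 from 0.0238 to 0.0431 and Apod from 0.0628 to 0.0194, all still below 1.

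Markers of other cells had few UMIs, but not all of their lists were low as a share. Neutrophil markers had 5 UMIs, all of Lcn2, with the other 9 at 0, including S100a8 and S100a9. Their ratio of 0.329 (0.107 to 0.768) became 1.11 (0.358 to 2.63) against other barcodes of the members' UMI totals, so no direction is given. Mural, endothelial and oligodendrocyte lists had 1 UMI each (Acta2, Cdh5 and Mbp). The 7 platelet and 7 osteoblast markers were at 0. The mural ratio was 0.0684 (0.00173 to 0.381). For the endothelial, oligodendrocyte, platelet and osteoblast lists the upper bounds of the ratio were 2.35, 13.1, 17.2 and 1.39, so none is called lower. Macrophage and monocyte markers had 36 UMIs in 19 members, and lymphocyte markers 12 in 3 members. As shares these were 2.04 times (1.43 to 2.82) and 5.62 times (2.90 to 9.84) those in other barcodes. These 2 lists lay largely in the 2 members under 90% globin, with 18 of the 36 and 10 of the 12 UMIs. Without those 2, macrophage markers held 0.133% of non-globin UMIs and 0.113% in other barcodes (ratio 1.17, interval 0.694 to 1.85). The lymphocyte ratio was then 1.08 (0.130 to 3.90). With all members, against other barcodes of the members' UMI totals, the ratios were 0.787 (0.550 to 1.09) for macrophage and 2.65 (1.35 to 4.71) for lymphocyte markers.

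The genes higher in EAE 1 were then read in the 2 members that had no part in choosing them. The 118 genes held 50.6% of the non-globin UMIs in the members of EAE 1, which chose them, and 2.74% in its other barcodes. In the EAE 2 member they held 140 of 199 non-globin UMIs (70.4%, interval 63.5 to 76.6%) against 2.77% in the other barcodes of that library. In the Healthy 3 member they held 29 of 65 (44.6%, 32.3 to 57.5%) against 3.04%. In both barcodes the interval lay above the share in the other barcodes, but it covers counting error only and each library had 1 such barcode. Of the 118 genes, 107 met the filter only through the members of EAE 1. A low share in other barcodes was therefore largely set by how the genes were chosen. In the 2 EAE 1 members under 90% globin the genes held 9.47% and 13.3%.

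Members differed in how much RNA they held beside globin, and the make-up differed with it. They were ranked by non-globin UMIs into sets of 73, 73 and 74, with 11 to 40, 40 to 71 and 71 to 1563 such UMIs. The values for the last set are given without its 2 members under 90% globin, which leaves 72 members with up to 184 UMIs. Median total UMIs rose along the ranking, from 2049 to 2546 and 3093, so rank and depth move together and cannot be told apart here.

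Alas2 was the most concentrated in the members with least other RNA, at 9.58% of non-globin UMIs (8.38 to 10.9%), then 6.40% and 4.46%. Per member it did not fall but had means of 2.88, 3.48 and 4.58 UMIs. Ftl1 followed the same order of shares, with 6.62%, 3.88% and 2.86%. Gpx1 ran the other way and far more steeply, with 0.183% (4 UMIs in 73 members), 1.39% (55 UMIs) and 3.61% (267 UMIs in 72 members). Cd24a had 0.274%, 0.983% and 1.08%. Mkrn1 (2.24%, 3.20% and 3.12%) and Bnip3l (1.37%, 1.49% and 1.42%) kept overlapping intervals throughout.

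By list, the haem genes held 11.1%, 8.06% and 5.59%, and the red cell enzymes 3.51%, 5.85% and 9.35%. Mitochondrial genes held 1.92% (1.38 to 2.58%), 2.77% and 3.92% (3.49 to 4.39%), and ribosomal protein genes 14.9%, 12.3% and 9.52%. Reticulocyte maturation genes changed little, with 12.5%, 14.6% and 14.4%. Fibroblast markers were at 0.228%, 0.378% and 0.311%, with overlapping intervals. Among the globins, Hbb-bt was 13.1% of beta UMIs in the first set and 16.5% in the others. The ranking uses the same UMIs as the shares, and intervals cover counting error only.

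**Figure D5:**
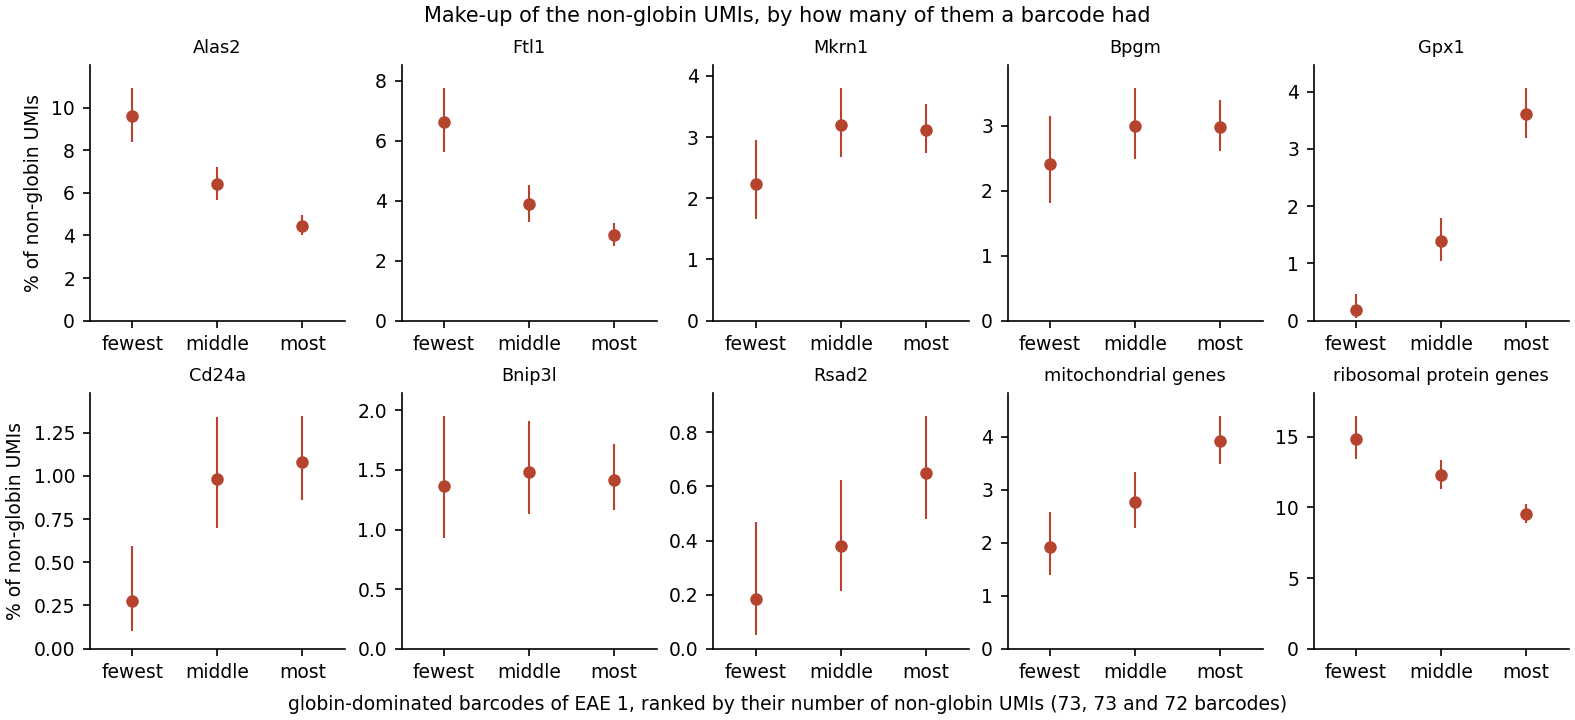
Share of non-globin UMIs (vertical axes, %, each from 0) of 8 genes and 2 gene groups in the globin-dominated barcodes of EAE 1, ranked by their number of non-globin UMIs (horizontal axes, 3 sets of 73, 73 and 72 barcodes, the last without the 2 under 90% globin), with exact 95% counting intervals. Alas2 and Ftl1 decline from left to right, and Gpx1 and mitochondrial genes rise.

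Globin UMIs also occurred outside the members. In EAE 1, 792 of 1936 other barcodes (40.9%) had at least 1, of which 628 had 1 or 2. In Healthy 1, 2 and 3 and EAE 2 the numbers with any were 43 (1.88%), 79 (7.07%), 16 (4.27%) and 13 (1.03%). Median UMIs per other barcode were 615, 913, 4263 and 5001 in these and 4517 in EAE 1, so the libraries also differ in depth. In EAE 1 the 2 barcodes just under the threshold held 62.5% of the globin UMIs outside members. Excluding them, the mean in EAE 1 was 1.01 globin UMIs per barcode. In its barcodes with under 1% globin, Hba-a1, Hba-a2, Hbb-bs and Hbb-bt divided 1949 globin UMIs as 20.2%, 16.7%, 55.7% and 7.44%, where the members divided theirs as 23.8%, 19.8%, 47.6% and 8.81%. The globin share outside members was 0.0509% in EAE 1, 0.000178% in EAE 2 and 0.00472%, 0.00697% and 0.00107% in Healthy 1 to 3. The difference between EAE and Healthy was 0.0213 points (two-sided exact permutation p = 0.8), 0.0450 in the first batch, -0.000895 in the second and -0.00408 without EAE 1. It was 0.00539 points with the threshold at 30%, which moves the 2 nearest barcodes into the members, and 0.0521 points at 90%. The library with many members was thus also the one with most globin UMIs elsewhere, and the part played by free RNA was not tested.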

How the data were processed

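The authors deposited a table of raw UMI counts per gene and barcode for each of 5 libraries, with no normalization. Cell Ranger 2.1.1, Seurat 3 and the mm10 build are named in the submitters' processing notes, with cell calling settings not given in the sources used here. Counts were used as deposited, with no doublet removal and no gene minimum. Tables were read with pandas 2.3.3, and intervals are exact Clopper-Pearson from scipy 1.17.1. The ratio script was tested on simulated data. Sequences come from RefSeq (GRCm38.p6) promoters and GENCODE transcripts of the same build.

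Members and lists were chosen with earlier results of these data known. Genes were named by most UMIs in members (15), the 15 highest ratios (at least 20 UMIs, 10% of members), the 10 lowest (50 UMIs expected), the top 3 of each erythroid list and the top gene of each marker list, and the text adds others of the lists with their counts. Some of the genes so named are not reported here. Groups came from titles. EAE 1 carries no number in its label and was numbered by order. Library shares were compared by exact permutation of 5 libraries. Alternatives included thresholds of 30% and 70%, other filters and other barcodes.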

Additional observations from a re-analysis of the deposited data

How the results depend on the processing

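Leaving out 1 library at a time, the difference between EAE and Healthy in the share of globin-dominated barcodes ran from -0.00941 to 10.1 points, in the globin share of all UMIs from -0.0111 to 5.07 points, and in the globin share outside members from -0.00408 to 0.0466 points. Each turned negative only without EAE 1 and was highest without EAE 2. Genes at least 2-fold higher or lower numbered 118 and 132 with the filter of 10 UMIs, 36 and 21 with a filter of 50, and 1080 and 15214 with no filter, since the filter sets how many genes are compared. With a threshold of 30% globin, which adds 2 barcodes, fibroblast markers held 0.797% of non-globin UMIs in place of 0.275%. The other 58 alternative values kept their direction, and counts stayed within 1.5 times. For the library differences only the sign was compared, and sizes could change greatly. With at least 200 genes the difference in globin-dominated barcodes was 0.0517 in place of 5.05 points. At 30% the globin share outside members differed by 0.00539 in place of 0.0213 points. No p-value could fall below 0.2, so these say nothing of stability. With batch as a block, an alternative added after seeing the data, the 3 differences were 5.01, 2.49 and 0.0221 points (exact permutation p = 0.667 each). For another added then, members of at least 90% globin against barcodes under 1%, the counts were 109 and 143. Requiring at least 200 genes leaves 2 members of EAE 1, so the gene comparisons were not run there. No paired analysis was possible because Healthy and EAE share only the replicate number 2 in the labels, and the gene comparison has no test. With 15613 non-globin UMIs in members, a gene under 1.92 per 10000 could go unseen.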

Other observations

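Isg20, Rsad2 and Ube2l6 are induced by interferon in many cells. Isg20 and Rsad2 had 2 of the 15 highest ratios in the globin-dominated barcodes of EAE 1. Ube2l6, with a ratio of 105, was not among those but was among the 15 genes with most UMIs there. A list of 17 interferon-induced genes was therefore read in the members, chosen after those values were seen. Ube2l6 had 183 UMIs in 113 members, Isg20 106 in 72 and Rsad2 69 in 44. Isg15, the ubiquitin-like modifier that Ube2l6 conjugates, had 44 UMIs in 22 members, 19.3-fold above other barcodes. From the other barcodes 2.28 UMIs of Isg15, 1.74 of Ube2l6, 0.327 of Isg20 and 0.295 of Rsad2 would be expected. These genes thus met the filter only through their UMIs in members, and that they were higher was fixed by the filter. Ube2l6, Isg20 and Rsad2 also prompted the list, so their ratios are descriptions only. Irf7 had 6 UMIs with a ratio of 7.09 (2.59 to 15.5), Ifitm3 17 with 0.392, and Bst2 5 with 1.03 (0.335 to 2.41). Ifi27l2a had 2 and Usp18 1, too few to place. Ifit1, Ifit2, Ifit3, Oasl2, Oas1a, Rtp4 and Xaf1 had none, but from the other barcodes at most 1.09 UMIs of each would be expected at the members' depth, so their absence was not detectable. The ratios of the genes seen lay on both sides of 1.

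In Healthy 2, the barcode with the highest globin share stood at 7.10% (43 of 606 UMIs) and also carried 20 UMIs of Hist1h2ap and 17 of Hist1h1b, histone genes of dividing cells, with no Alas2. In Healthy 1 the highest had 51 globin UMIs of 339, and that barcode is also the one at 42.3% in EAE 1.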
